A study of Mus musculus with 12 samples.

Results

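The 9 genes P2ry12, Tmem119, Cx3cr1, Csf1r, Siglech, C1qa, Trem2, Tyrobp and Apoe are used to recognise microglia, the resident macrophages of the brain and spinal cord, and to follow their activation. They were chosen by gene symbol out of 38924 genes in the deposited tables, each symbol stood for 1 gene, and all 9 were among the 17189 genes with enough counts to be tested. The data are RNA sequencing of whole spinal cord from 12 mice aged 8 weeks on a mixed B6J;FVB background. In 6 mice 1 copy of Gars, the gene of glycyl-tRNA synthetase, carried the ETAQ deletion (GarsdelETAQ/+, below ETAQ/+), and the other 6 were wild type (WT), with 3 females and 3 males of each genotype. Each library came from 1 mouse, and the mice are named by the numbers 1 to 12 that the sample titles give them. The question was whether the cord of ETAQ/+ mice differs from that of WT mice in these transcripts.

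Microglia in healthy tissue extend fine processes under the guidance of ADP sensed by P2RY12, receive the neuronal chemokine fractalkine through CX3CR1, and depend for their survival on signalling through CSF1R. When they meet debris, lipid or dying cells, TREM2 signals through its adaptor TYROBP, and in mouse models of neurodegeneration this drives a state in which homeostatic genes such as P2ry12 and Tmem119 fall while Apoe and other lipid and lysosomal genes rise. C1q, made by microglia, tags synapses and debris for removal, and Apoe is expressed mainly by astrocytes in healthy tissue.

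The upstream sequences of Trem2, Siglech and Cx3cr1 are shown because these 3 genes moved together across the mice more closely than other members with an entry in the RefSeq promoter table (GRCm38.p6), which held 5 of the 9. Each is the 250 bases before the annotated start, written 5′ to 3′ on the gene's strand. PU.1 (Spi1), the transcription factor that specifies macrophages and microglia, binds a purine-rich box whose core was searched as GAGGAA on both strands. Capitals mark a match.
Trem2 (chr17:48346151-48346400, plus strand): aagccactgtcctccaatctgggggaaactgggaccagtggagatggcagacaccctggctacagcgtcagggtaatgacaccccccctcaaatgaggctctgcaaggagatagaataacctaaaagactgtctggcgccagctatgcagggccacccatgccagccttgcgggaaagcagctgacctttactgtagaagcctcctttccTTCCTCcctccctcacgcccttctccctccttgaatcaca
Siglech (chr7:55767934-55768183, plus strand): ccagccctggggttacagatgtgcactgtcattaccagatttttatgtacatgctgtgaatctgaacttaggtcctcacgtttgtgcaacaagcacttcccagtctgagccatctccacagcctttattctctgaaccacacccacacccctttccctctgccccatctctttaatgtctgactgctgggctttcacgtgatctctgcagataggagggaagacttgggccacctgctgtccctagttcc
Cx3cr1 (chr9:120068297-120068546, minus strand): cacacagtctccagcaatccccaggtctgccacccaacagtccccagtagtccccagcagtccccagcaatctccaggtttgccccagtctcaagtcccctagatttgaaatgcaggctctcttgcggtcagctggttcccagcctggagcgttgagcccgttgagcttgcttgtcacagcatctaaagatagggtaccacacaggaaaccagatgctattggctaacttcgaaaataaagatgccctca
In Trem2 the match is TTCCTC, the reverse complement of GAGGAA, and it begins 40 bases before the start. No match to these letters lay in the windows of Siglech, Cx3cr1 and P2ry12, and Apoe held it upstream of 2 of its 3 annotated starts. Of 32851 promoter windows of the same length, 23.3% held the core, which contains GGAA, the core common to ETS factors, present in 93.4%. The full box GAGGAAGT was in 2.44% of all windows and in none of those of the 5 members. A match describes the letters and not binding.

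Library totals lay between 23595944 and 41452700 expected counts, and 20805 to 21858 genes had a count above 0. Gars averaged 145 normalised CPM (counts scaled by library total and TMM factor) in ETAQ/+ and 127 in WT (log2 fold change 0.19 ± 0.03, adjusted p = 0.00408, edgeR), and the counts do not separate its 2 alleles. Libraries of mice 1 to 6 stood apart from those of mice 7 to 12 in markers of monocytes and neutrophils, border-associated macrophages and lymphocytes. The 10 monocyte and neutrophil markers found in the tables summed to 442 to 877 TPM (scaled by gene length and library total) in mice 1 to 6 and to 0.95 to 19.02 TPM in mice 7 to 12. The 9 border-associated macrophage markers summed to 13.3 to 24.8 TPM in mice 1 to 6 and to 5.64 to 8.07 TPM in mice 7 to 12. The 9 lymphocyte markers summed to 6.01 to 11.6 TPM in mice 1 to 6 and to 0.71 to 1.71 TPM in mice 7 to 12. No listed marker of these 3 cell types was at 0 in all mice. The 8 members other than Apoe summed to 175 to 248.8 TPM in mice 1 to 6 and to 165 to 205 TPM in mice 7 to 12, which overlap. Both sets of mice hold 3 ETAQ/+ and 3 WT cords, but all 3 WT males are in mice 1 to 6 and all 3 WT females in mice 7 to 12. Log2 fold changes within each set are therefore given beside the 9 genes and the called genes. They come from 1 fit of all mice, with a sex term shared by both sets. Being adjusted for sex, they can differ from a plain comparison of the means within a set. Gars had log2 fold changes of 0.18 within mice 1 to 6 and 0.20 within mice 7 to 12, and was not called within either (adjusted p = 0.146 and 0.0871, edgeR).

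**Figure D1:**
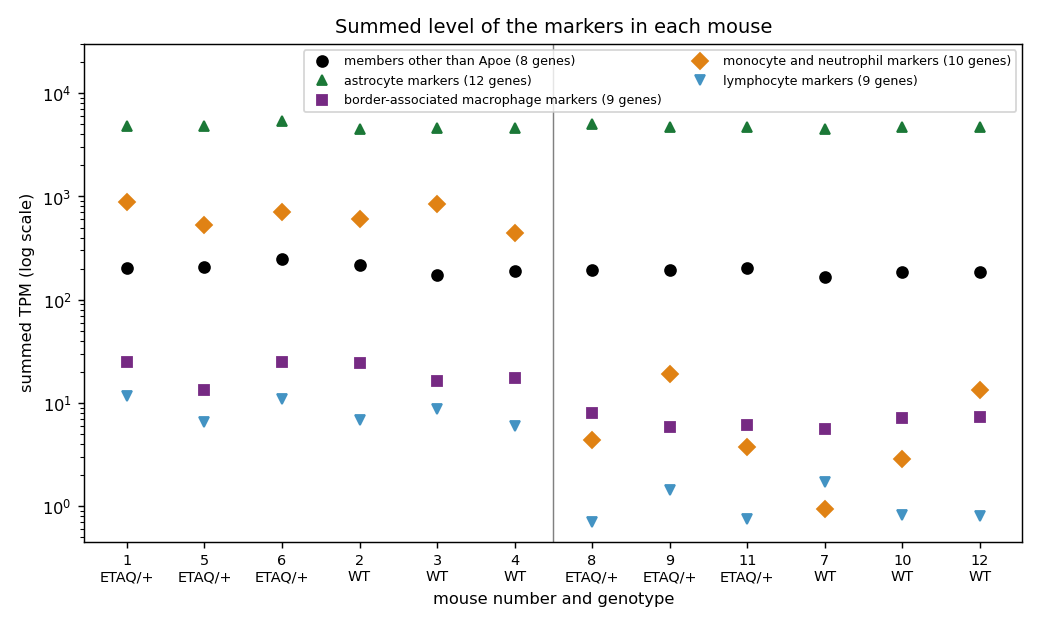
Summed TPM (log axis) of microglial genes and of markers of other cell types in each of the 12 mice. Monocyte and neutrophil markers lie at 442 to 877 TPM in mice 1 to 6 and at 0.95 to 19.02 TPM in mice 7 to 12, while the 8 members other than Apoe overlap between these mice.

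Apoe was by far the most abundant of the 9 genes. It averaged 2807 ± 202 TPM (SD, n = 12 mice), against 51.9 ± 7.76 TPM for C1qa and 35.8 ± 3.04 TPM for Csf1r. Tyrobp followed at 34.1 ± 7.21 TPM, with ranges over mice that overlapped those of Csf1r and Cx3cr1. Cx3cr1 averaged 21.5 ± 2.82 TPM and P2ry12 19.3 ± 2.32 TPM. Trem2 (12.9 ± 1.77 TPM), Tmem119 (11.5 ± 1.11 TPM) and Siglech (10.8 ± 2.12 TPM) closed the order and overlapped from each to the next, while P2ry12 was above Trem2 in 12 of 12 mice with no overlap. The markers that define microglia were therefore present in every cord of both genotypes.

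None of the 9 genes passed the test for genotype, and for none of them were the 6 ETAQ/+ mice separated from the 6 WT mice. Their log2 fold changes, ETAQ/+ over WT, ran from 0.03 to 0.25 with a median of 0.10, against a median of 0.00 over all genes tested. All 9 were above 0, as were 51.9% of all genes. The 9 were measured in the same 12 libraries, and the 28 pairs among those other than Apoe all correlated positively across mice. They are therefore not 9 separate observations. By edgeR's quasi-likelihood test, in a fit that also held sex, with Benjamini-Hochberg adjustment over 17189 genes, 0 of 9 were called at an adjusted p of 0.05, where 1.92% of all genes were called, and groups that do not overlap occurred in 2.01% of all genes. At an unadjusted p under 0.05 stood 2 of the 9, Cx3cr1 and Apoe, where 10.9% of all genes did, and 4.53% did so with a higher level in ETAQ/+. DESeq2 and limma-voom called 0 of 9. With the mouse sets as a covariate 0 of 9 were called, at a background of 2.71%, as within mice 1 to 6 (background 0.803%) and within mice 7 to 12 (background 0.937%). Summed over the 8 members other than Apoe, the level was 194 to 248.8 TPM in ETAQ/+ cords (median 205) and 165 to 216 TPM in WT cords (median 185). These ranges overlap. In whole tissue, fewer cells of a type and less RNA per cell cannot be told apart, and the 9 genes report both together.

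**Figure D2:**
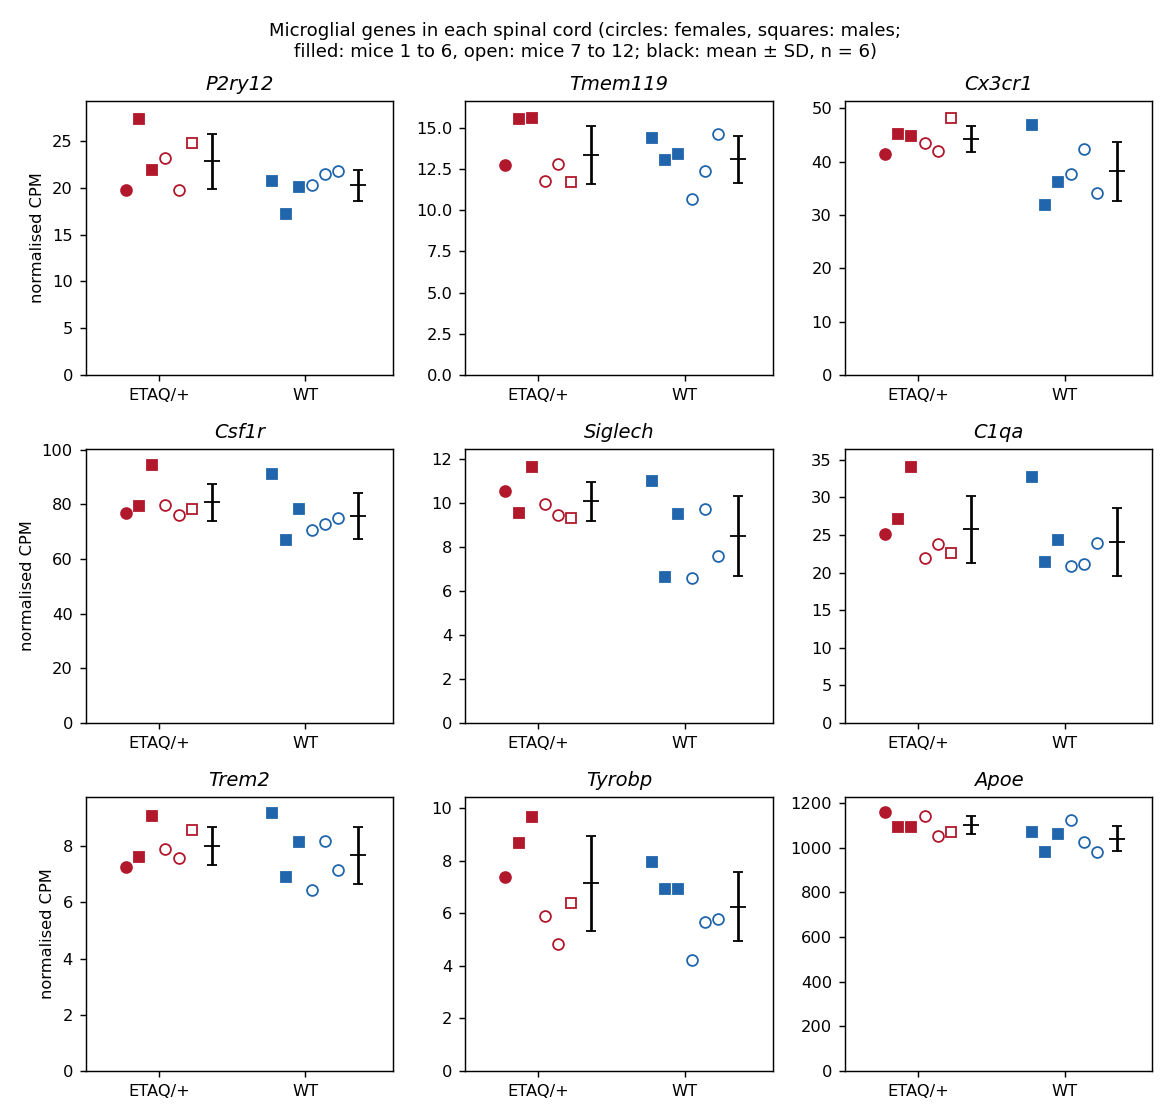
Normalised CPM of each of the 9 genes in the 6 ETAQ/+ mice (left in each panel) and the 6 WT mice (right), with sex by symbol and mouse number by fill; black marks are mean and SD. The groups overlap in all 9 panels, and for Cx3cr1 4 of the 6 WT mice lie below every ETAQ/+ mouse.

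P2ry12 (ENSMUSG00000036353, chr3:59216272-59262871, minus strand, GRCm38), the ADP receptor that steers microglial processes, ranged over the 6 ETAQ/+ mice between 19.8 and 27.4 normalised CPM with a median of 22.5, and over the 6 WT mice between 17.2 and 21.8 with a median of 20.5. Of the ETAQ/+ mice 4 lay above every WT mouse and the other 2 lay within the WT range. The log2 fold change was 0.17 ± 0.08 (SE; 95% interval -0.01 to 0.34; adjusted p = 0.50, edgeR). Adjusted for sex, it was 0.33 within mice 1 to 6 and 0.00 within mice 7 to 12. The plain means were 23.0 CPM in ETAQ/+ and 19.3 CPM in WT among mice 1 to 6. Among mice 7 to 12 they were 22.6 CPM in ETAQ/+ and 21.2 CPM in WT. By sex, P2ry12 averaged 24.7 ± 2.75 CPM in ETAQ/+ males and 19.3 ± 1.90 in WT males (SD, n = 3 each), and 20.9 ± 1.97 in ETAQ/+ females and 21.2 ± 0.776 in WT females. The 3 males of each genotype did not overlap, whereas the females did. The share of all genes that separate among 3 and 3 males was not counted. The difference in genotype effect between the sexes, females minus males on the log2 scale, was -0.37 ± 0.13, with an unadjusted p of 0.0158 and an adjusted p of 0.901 in edgeR. All 3 WT males are in mice 1 to 6 and all 3 WT females in mice 7 to 12. Sex and mouse set therefore cannot be told apart in WT, and this fit held no term for the set.

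Cx3cr1 (ENSMUSG00000052336, chr9:119901616-120069879, minus strand), the fractalkine receptor, ranged between 41.4 and 48.2 CPM with a median of 44.2 in ETAQ/+ mice, and between 31.8 and 46.9 CPM with a median of 37.0 in WT mice. All 6 ETAQ/+ mice lay above the WT median and 4 of the 6 WT mice lay below every ETAQ/+ mouse, but the highest WT cords were within the ETAQ/+ range. Its log2 fold change of 0.21 ± 0.08 (95% interval 0.03 to 0.38) had the smallest adjusted p of the 9 genes, 0.342 in edgeR, and was 0.24 within mice 1 to 6 and 0.18 within mice 7 to 12. Cx3cl1, the neuronal gene of its ligand fractalkine, averaged 178 ± 7.57 CPM in ETAQ/+ and 177 ± 6.59 CPM in WT, a log2 fold change of 0.01 (adjusted p = 0.967). The ratio of ligand to receptor in TPM was 4.24 ± 0.372 in ETAQ/+ and 4.97 ± 0.778 in WT (SD, n = 6 each), ranges that overlap.

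Csf1r (ENSMUSG00000024621, chr18:61100598-61132149, plus strand), the receptor that microglia need to survive, ranged between 76.1 and 94.2 CPM with a median of 78.8 in ETAQ/+ mice, and between 67.0 and 91.2 CPM with a median of 73.9 in WT mice. The highest ETAQ/+ cord, mouse 6, stood well above the other 5, which ended at 79.9 CPM. Its log2 fold change was 0.09 ± 0.07 (adjusted p = 0.706, edgeR), 0.11 within mice 1 to 6 and 0.07 within mice 7 to 12. Of its exon bases 15.1% lie opposite Hmgxb3 and 13.9% of its 75-base sequences recur in transcripts of another gene, so its count is uncertain. Of its ligands, Csf1 was at 57.4 to 63.8 CPM in ETAQ/+ mice and 47.6 to 56.9 CPM in WT mice, groups that do not overlap, but its log2 fold change of 0.15 ± 0.04 missed the threshold (adjusted p = 0.131, edgeR), with 0.18 within mice 1 to 6 and 0.12 within mice 7 to 12. Il34, the other ligand, averaged 10.4 ± 0.622 CPM in ETAQ/+ and 10.9 ± 1.10 CPM in WT, a log2 fold change of -0.07 (adjusted p = 0.762).

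Tmem119 (ENSMUSG00000054675, chr5:113793729-113800516, minus strand), a membrane protein that separates microglia from other macrophages, differed least. It ranged between 11.7 and 15.6 CPM with a median of 12.8 in ETAQ/+ mice, and between 10.7 and 14.6 CPM with a median of 13.2 in WT mice. The groups overlapped along most of their length, with 2 ETAQ/+ mice above the WT median. Its log2 fold change was 0.03 ± 0.08 (95% interval -0.15 to 0.20; adjusted p = 0.954, edgeR), with 0.13 within mice 1 to 6 and -0.09 within mice 7 to 12. Siglech (ENSMUSG00000051504, chr7:55768178-55778925, plus strand), a sialic acid-binding receptor that pairs with TYROBP, had the largest fold change of the 9. It ranged between 9.33 and 11.6 CPM with a median of 9.75 in ETAQ/+ mice, and between 6.59 and 10.98 CPM with a median of 8.55 in WT mice. All 6 ETAQ/+ mice lay above the WT median, and 3 WT mice lay below every ETAQ/+ mouse. The log2 fold change was 0.25 ± 0.12 (95% interval -0.02 to 0.51; adjusted p = 0.50, edgeR), 0.22 within mice 1 to 6 and 0.27 within mice 7 to 12.

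Of 17 further homeostatic microglial genes, among them Sall1, Gpr34 and P2ry13, none was called by edgeR, DESeq2 or limma-voom. At an unadjusted p under 0.05 stood 1 of the 17, where 10.9% of all genes did (edgeR). A log2 fold change above 0 was held by 13, where 51.9% of all genes were above 0, and the median of the 17 was 0.07. Itgam, the integrin chain CD11b, was at 24.0 CPM in ETAQ/+ and 22.5 in WT (log2 fold change 0.09 ± 0.06, adjusted p = 0.654, edgeR). Summed over the 17 genes, the level was 293 to 344 TPM in ETAQ/+ cords and 266 to 318 TPM in WT cords, which overlap.

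C1qa (ENSMUSG00000036887, chr4:136895917-136898803, minus strand) encodes a chain of C1q, which opens the classical complement pathway. It ranged between 21.9 and 34.0 CPM with a median of 24.5 in ETAQ/+ mice, and between 20.9 and 32.8 CPM with a median of 22.7 in WT mice. The highest cord was mouse 6 in ETAQ/+ and mouse 2 in WT, where the other 5 WT cords ended at 24.3 CPM, and the groups overlapped. The log2 fold change was 0.10 ± 0.11 (95% interval -0.15 to 0.35; adjusted p = 0.842, edgeR), 0.18 within mice 1 to 6 and 0.00 within mice 7 to 12. The genes of the other C1q chains, C1qb and C1qc, had log2 fold changes of -0.04 and -0.05, and the ratio of C1qa to C1qb in TPM was 1.45 ± 0.191 in ETAQ/+ and 1.32 ± 0.174 in WT.

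Among 11 complement genes tested, 2 rose in ETAQ/+ cords and none fell, at a background of 0.582% of all genes called higher. C3, the central component cleaved by the pathway, was at 137 to 177 CPM with a median of 145 in ETAQ/+ mice and at 93.0 to 139 CPM with a median of 113 in WT mice. The groups met only at their edges. Its log2 fold change of 0.38 ± 0.09 was called (adjusted p = 0.0489, edgeR), but the call was lost in 15 of 21 alternatives, with adjusted p up to 0.551. These were the mouse sets as a covariate (0.0632), no filter on low counts (0.111) and no sex term (0.0921). The effect within each mouse set was not called either (log2 fold change 0.48 within mice 1 to 6 and 0.29 within mice 7 to 12). The rest left out any 1 of 10 of the 12 mice (up to 0.128 without mouse 8). C4b, a component that C1 cleaves, was at 72.6 to 92.5 CPM in ETAQ/+ mice and 64.3 to 74.4 CPM in WT mice (0.26 ± 0.05, adjusted p = 0.0191, edgeR). Its call ended without mouse 3, 4, 8 or 12 (adjusted p up to 0.0573) and within each mouse set (0.30 within mice 1 to 6 and 0.21 within mice 7 to 12), and 22.7% of its 75-base sequences occur in transcripts of another gene, so its count is uncertain. The other 9 genes were not called, and the median log2 fold change of the 11 was 0.02.

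Trem2 (ENSMUSG00000023992, chr17:48346401-48354147, plus strand), a receptor for lipids and lipoproteins, ranged between 7.28 and 9.06 CPM with a median of 7.76 in ETAQ/+ mice, and between 6.44 and 9.17 CPM with a median of 7.65 in WT mice. All 6 ETAQ/+ mice lay inside the WT range, and the highest cord was WT mouse 2. Its log2 fold change was 0.06 ± 0.08 (95% interval -0.11 to 0.23; adjusted p = 0.871, edgeR), 0.04 within mice 1 to 6 and 0.08 within mice 7 to 12. Tyrobp (ENSMUSG00000030579, chr7:30413760-30417585, plus strand), the adaptor also called DAP12, ranged between 4.85 and 9.68 CPM with a median of 6.90 in ETAQ/+ mice, and between 4.22 and 7.96 CPM with a median of 6.36 in WT mice. Its log2 fold change was 0.20 ± 0.12 (95% interval -0.07 to 0.46; adjusted p = 0.643, edgeR). Within mice 1 to 6 it was 0.33 and within mice 7 to 12 it was 0.02, both adjusted for sex in the fit of all mice.

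Tyrobp was the 1 member of 9 whose levels did not overlap between the mouse sets, as for 8.85% of all genes, at 6.93 to 9.68 CPM in mice 1 to 6 and 4.22 to 6.404 CPM in mice 7 to 12. The set effect in a fit with sex and genotype, mice 1 to 6 over mice 7 to 12, was 0.40 ± 0.12 on the log2 scale and did not pass (adjusted p = 0.0623, edgeR). In mice 1 to 6 it averaged 8.59 ± 1.15 CPM in ETAQ/+ cords and 7.28 ± 0.587 in WT cords, and in mice 7 to 12 it averaged 5.72 ± 0.794 in ETAQ/+ cords and 5.23 ± 0.876 in WT cords (SD, n = 3 each). The monocyte and neutrophil markers were higher in the same mice, and their part in the Tyrobp level was not tested. The ratio of Trem2 to Tyrobp in TPM was 0.339 ± 0.0666 in mice 1 to 6 and 0.442 ± 0.0650 in mice 7 to 12.

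Of 9 tested genes of TREM2-TYROBP signalling none was called by edgeR, DESeq2 or limma-voom, and the median log2 fold change was 0.10. At an unadjusted p under 0.05 stood 1 of them, where 10.9% of all genes did (edgeR). That gene was Sirpa, an inhibitory receptor for CD47, with 158 CPM in ETAQ/+ and 153 in WT (0.05 ± 0.02, adjusted p = 0.452). Grb2, an adaptor of receptor kinases, had a log2 fold change of -0.04 ± 0.03 (adjusted p = 0.715). Of 10 myeloid transcription factors none was called by these tools. Against the same background 1, Mef2c, had an unadjusted p under 0.05 (0.11 ± 0.04, adjusted p = 0.285, edgeR). Cebpb, a factor of macrophage activation, had a log2 fold change of 0.29 ± 0.15 at 1.55 CPM in ETAQ/+ and 1.26 in WT (adjusted p = 0.514).

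Apoe (ENSMUSG00000002985, chr7:19696109-19699188, minus strand), the lipid carrier, ranged between 1054 and 1163 CPM with a median of 1094 in ETAQ/+ mice, and between 979.96 and 1124 CPM with a median of 1045 in WT mice. All 6 ETAQ/+ mice lay above the WT median, 2 of them lay above every WT mouse, and the groups overlapped. The log2 fold change was 0.08 ± 0.04 (95% interval 0.00 to 0.16; unadjusted p = 0.0431, adjusted p = 0.434, edgeR), and 0.08 within mice 1 to 6 and within mice 7 to 12. Since astrocytes also express Apoe, their markers stand beside it: 2 of 12 astrocyte markers rose, at the background of 0.582% of all genes called higher, and none fell. These were Agt (log2 fold change 0.24 ± 0.04, adjusted p = 0.00194, edgeR; 0.27 within mice 1 to 6 and 0.21 within mice 7 to 12) and Slc1a3 (0.19 ± 0.04, adjusted p = 0.0141, edgeR; 0.20 and 0.17, called within neither set). Of the 12, 8 had a log2 fold change above 0, as did 51.9% of all genes, and the median of the 12 was 0.06. An unadjusted p under 0.05, in either direction, was held by 5 of the 12, where 10.9% of all genes had one (edgeR). The highest was Gfap at 0.25 ± 0.08 (adjusted p = 0.210, edgeR), which DESeq2 called (adjusted p = 0.0219). The lowest was S100b at -0.21 ± 0.08 (adjusted p = 0.289, edgeR). The 12 summed to 4728 to 5397 TPM in ETAQ/+ cords and 4493 to 4741 TPM in WT cords. The part of the astrocyte level in Apoe was not tested.

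Among 15 genes of APOE lipid transport and its receptors, 1 rose and none fell, where 0.582% of all genes were called higher. Vldlr, a receptor for APOE-bearing lipoproteins and for reelin, was at 107 to 125 CPM in ETAQ/+ mice and 97.3 to 105 CPM in WT mice. The 2 groups did not overlap, and the log2 fold change was 0.20 ± 0.04 (adjusted p = 0.0217, edgeR), a call that ended without mouse 3, 4, 8 or 12 (adjusted p up to 0.0620) and within each mouse set (0.18 within mice 1 to 6 and 0.21 within mice 7 to 12). The other 14 were not called, with Apoc1 at 1.82 CPM in ETAQ/+ and 1.23 in WT (0.56 ± 0.23, adjusted p = 0.356).

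Of 19 tested genes of the disease-associated microglial state, 1 fell and none rose, with a median log2 fold change of 0.01 and a background of 1.34% of all genes called lower. Spp1, the secreted protein osteopontin, which motor neurons also express, was at 55.0 to 75.8 CPM in ETAQ/+ mice and 71.5 to 92.4 CPM in WT mice. The groups overlapped slightly, and the log2 fold change was -0.42 ± 0.05 (adjusted p = 0.000527, edgeR), -0.34 within mice 1 to 6 and -0.51 within mice 7 to 12, called within both. Its count is uncertain, since 18.8% of its exon sequence overlaps a same-strand gene, Gm42793. Ctsb, a lysosomal protease, and Lpl, a lipoprotein lipase, had log2 fold changes of -0.07 ± 0.03 and 0.31 ± 0.13 (adjusted p = 0.249 and 0.430, edgeR). DESeq2 called Ctsb as well (adjusted p = 0.0300).

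Among 11 phagocytosis receptors and partners, 1 fell and none rose, where 1.34% of all genes were called lower. Gas6, the ligand that bridges dying cells to the receptors AXL and MERTK, was at 121 to 126 CPM with a median of 125 in ETAQ/+ mice and at 135 to 141 CPM with a median of 137 in WT mice. All 6 ETAQ/+ mice lay below all 6 WT mice, and the log2 fold change was -0.15 ± 0.02 (adjusted p = 0.00116, edgeR), -0.15 within mice 1 to 6 and -0.16 within mice 7 to 12. The call did not pass on log2(TPM + 1) with limma-trend (adjusted p = 0.38) or within mice 1 to 6 (0.0640). Pros1, the related ligand protein S, had a log2 fold change of 0.18 ± 0.05 in the other direction (adjusted p = 0.154).

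The remaining lists held no call by edgeR or limma-voom and, with the exception of Adora1, none by DESeq2. Of 14 inflammatory cytokine and effector genes, 6 were abundant enough to be tested and none had an unadjusted p under 0.05, with Nos2 and Il1a, which make nitric oxide and interleukin 1 alpha, under 1 CPM in both genotypes (log2 fold changes -0.29 ± 0.22 and -0.27 ± 0.21). Of 7 purinergic genes, Adora1, the adenosine A1 receptor, had the smallest p (-0.11 ± 0.03, adjusted p = 0.0747, edgeR), and it was called by DESeq2 (0.00268) and in edgeR with the mouse sets as a covariate (0.0458). P2ry6, a receptor linked to phagocytosis, had a log2 fold change of 0.30 ± 0.17 (adjusted p = 0.559). Of 9 genes for signals from other cells and their receptors, none was called. Csf1 held the only unadjusted p under 0.05, a level that 10.9% of all genes reached (edgeR). Border-associated macrophage, monocyte and neutrophil, and lymphocyte markers gave 0 calls of 9, 10 and 4 tested in edgeR, DESeq2 and limma-voom, and 0 at an unadjusted p under 0.05.

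**Figure D3:**
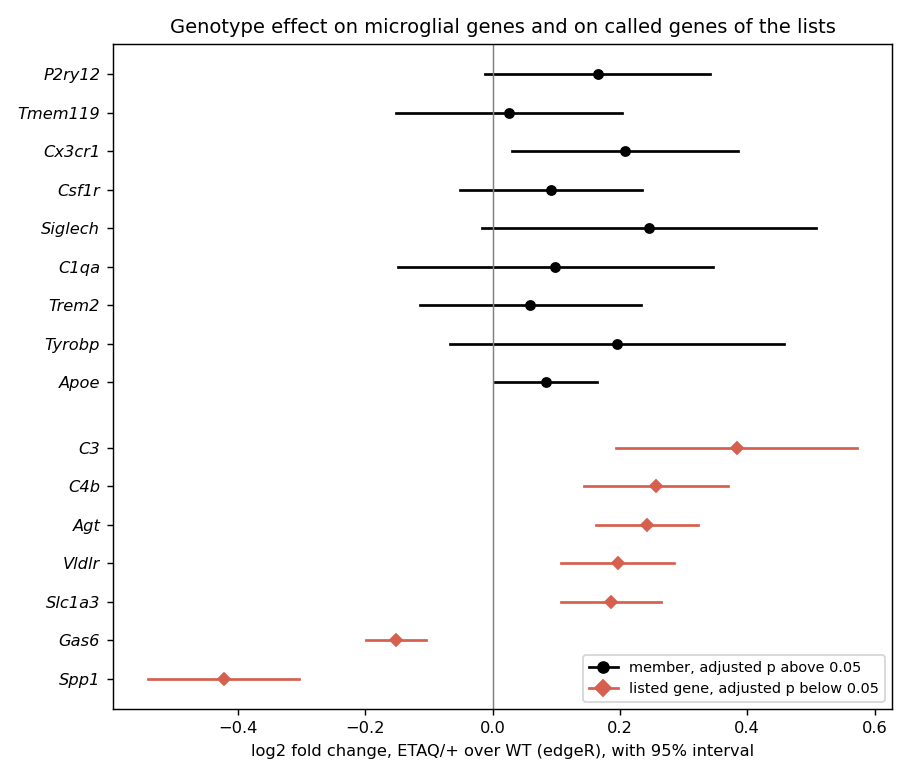
Log2 fold changes, ETAQ/+ over WT, of the 9 genes and of the called genes of the lists, with 95% intervals from edgeR. The 9 genes lie between 0.03 and 0.25, and 7 of the intervals reach 0 or below.

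**Figure D4:**
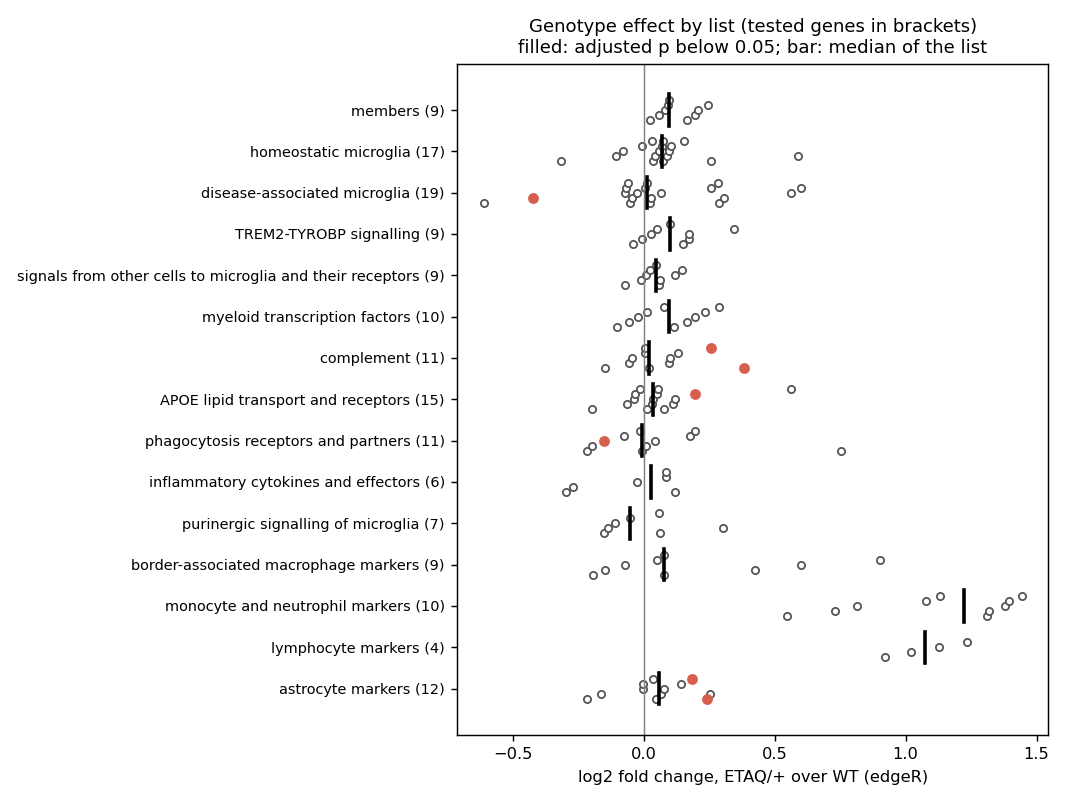
Log2 fold changes, ETAQ/+ over WT, of the tested genes of each list, with called genes filled and a bar at each median. The median of the 9 microglial genes is 0.10, and that of the 11 complement genes, which hold 2 calls, is 0.02.

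The intervals set the size of change these 12 cords leave room for. The highest upper bound among the 9 genes was 1.42-fold higher in ETAQ/+ for Siglech, then 1.37-fold for Tyrobp and 1.31-fold for Cx3cr1, and the lowest lower bound was 0.900-fold for Tmem119. For Apoe the upper bound was 1.12-fold. These bounds are 95% intervals for single genes and are not adjusted for the number of genes.

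The sex effect, females over males, was called for none of the 9 genes, at a background of 0.0931% of all genes, and 1 of the 9 had an unadjusted p under 0.05, where 16.8% of all genes did. That gene was Tyrobp, at 5.64 ± 1.08 CPM in females and 7.77 ± 1.25 CPM in males (SD, n = 6 each), a log2 fold change of -0.46 ± 0.12 (adjusted p = 0.177, edgeR). With the mouse sets as a covariate it was -0.20 ± 0.12 and was not called, and sex and mouse set coincide in 10 of the 12 mice, all but mice 1 and 11. Leaving out mouse 1 or mouse 11 made Tyrobp a call (adjusted p = 0.0309 and 0.0214, edgeR) and gave 1018 and 1180 calls over all genes, against 16 with all mice. The interaction of genotype and sex was called for 0.0% of all genes and for none of the 9, of which P2ry12 alone had an unadjusted p under 0.05, where 4.96% of all genes did.

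Across the 12 mice, 8 of the 9 genes moved together and Apoe did so less. For log2(normalised CPM + 0.5) centred within mice 1 to 6 and within mice 7 to 12, the 28 pairs of the 8 genes other than Apoe all had a positive Pearson r, with a median of 0.63 and a range from 0.12 for Tmem119 with Cx3cr1 to 0.92 for Csf1r with C1qa. Csf1r and C1qa were both highest in mice 6 and 2, at 94.2 and 91.2 CPM for Csf1r and at 34.0 and 32.8 CPM for C1qa. How far their r rests on these mice was not tested. Siglech had r = 0.81 with Cx3cr1 and 0.81 with Trem2, and Cx3cr1 with Trem2 had 0.72. Apoe with the other 8 had a median of 0.23, from -0.43 with Tmem119 to 0.55 with Cx3cr1. Each mouse's values share 1 library and its depth, and these correlations describe the 12 cords only. The mean of the 8 genes had as its nearest genes, over 12 mice, Gsn, an actin-severing protein (r = 0.96), Arpc1b of the ARP2/3 complex (0.94), Aldh1l2 (0.93) and Tmsb4x, which sequesters actin (0.93). Mog, which encodes a myelin protein of oligodendrocytes, was also among the 10 nearest (0.92), with Cers2, Fam151b, BC028528 and Pla2g4a. On the lists, C3ar1, the receptor of the C3a fragment, had 0.86 (rank 32), and the astrocyte gene Gfap had 0.84 (rank 47) of 17180 genes. For single members the nearest genes, up to 3 each, were Banf1 (0.96), 2310022B05Rik and Ltbp1 for Siglech, Fanci (0.96), Prss23 and Tgfb3 for C1qa, and Snrpc (0.95), S100a6 and Mmrn2 for Trem2. They were Axin2 (0.94), Kdm2b and Bahcc1 for Apoe, Commd2 (0.94), Dcaf17 and Aasdhppt for Tyrobp, and Gsn (0.94), C1qa and Itga5 for Csf1r. BC056474 (0.93), Gm11518 and Gtf2i stood nearest to Tmem119, 2610034M16Rik (0.93), Arl2 and Tceal8 to P2ry12, and Ehhadh (0.90) and D1Ertd622e to Cx3cr1. Apart from C1qa, none of these was on a list of microglial genes.

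**Figure D5:**
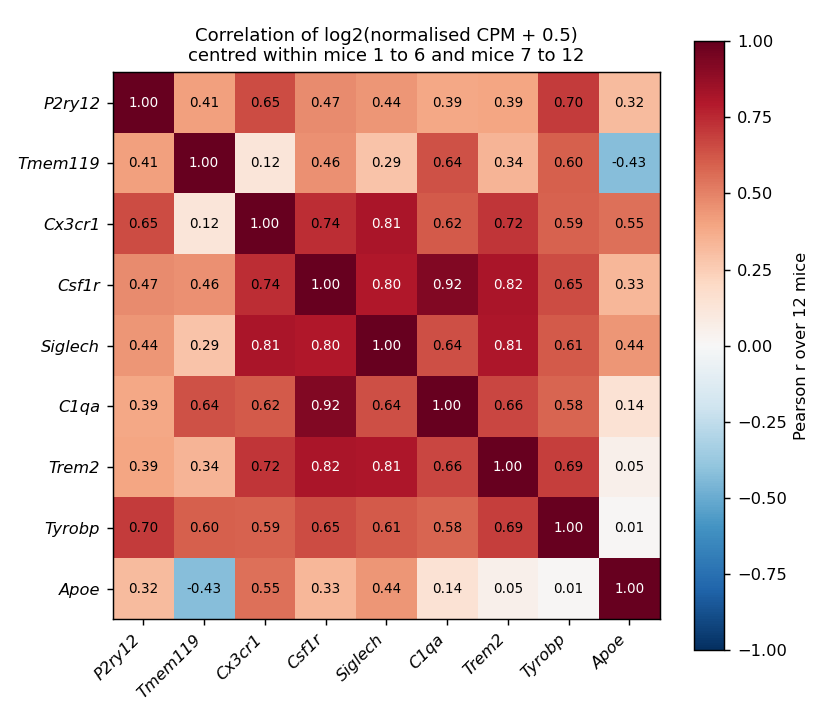
Pearson r between the 9 genes over 12 mice, for log2(normalised CPM + 0.5) centred within mice 1 to 6 and mice 7 to 12. The 28 pairs among the genes other than Apoe are all above 0, with Csf1r and C1qa highest at 0.92, and Apoe stands apart with r down to -0.43.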

How the data were processed

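RNA of 12 spinal cords was sequenced as polyA libraries, 1 per mouse, per the labels. Bowtie2 2.2.0 and RSEM 1.2.12 are named in the submitters' processing notes. The genome build, annotation and strand setting are not given in the sources used here, and the protocol names a pair of library kits without saying which was used where. The authors' deposited tables hold expected counts, which are not normalised and of which 15.4% were not whole, and, per the file headers, TPM, which the authors scaled for length and depth. RSEM divides reads among similar genes by estimate, which can blur near-identical ones. Library totals were 23595944 to 41452700, and 3 counts, the limit that a count of 0 allows, equalled 0.0724 to 0.127 CPM. Limits cover counting error only.

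Expected counts were rounded and tested in R 4.3.3 with edgeR 4.0.16 (filterByExpr on the 4 genotype-by-sex groups, TMM, robust quasi-likelihood F test, two-sided, Benjamini-Hochberg over all genes tested). Genotype was tested with sex as a covariate, sex with genotype, and their interaction in a fit of the 4 groups. The SE was derived from the fold change and its F statistic. DESeq2 1.42.0, limma 3.58.1 (voom, and trend on log2(TPM + 1)), RLE scaling, no filter and no sex term were alternatives. So were the mouse sets as a covariate, the effect within each set, and leaving out each mouse. The effects within a set came from a fit of all mice with terms for sex, set and genotype within set. The scripts were tested on simulated data. Positions and shared 75-base sequences (counted on either strand) came from GENCODE M21 (GRCm38), which holds 96.6% of the gene IDs. Promoter sequences came from RefSeq.

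The members and the 14 lists beside them (167 genes, 149 tested) were chosen with earlier results of these data known. C1s1 and Chil3 matched no symbol, and for Adora3 and Cd47, with a pair of table entries each, the entry with the higher mean was used. From each list the called genes were named, otherwise the 2 with the smallest p, and further genes named were chosen after their values were seen. From the ranking by correlation, the 10 genes nearest to the mean of the 8 members other than Apoe and the 3 nearest to each member were named. Some genes that these rules select are not reported here. The tests behind the p-values set a difference between groups against the spread between mice, moderated over genes. The main genotype fit held no term for the mouse set.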

Additional observations from a re-analysis of the deposited data

Results flagged for a closer look

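Of the values, 3 lay far from the other 5 mice of their genotype in Dixon's test, out of 18 gene and genotype groups examined, and chance marks about 1 in 20. P2ry12 was at 17.2 CPM in WT mouse 3, where the other WT mice were at 20.1 to 21.8, and without this mouse its genotype log2 fold change was 0.11, against 0.17 with it. Csf1r was at 94.2 CPM in ETAQ/+ mouse 6, where the other ETAQ/+ mice were at 76.1 to 79.9, and without this mouse its log2 fold change was 0.05, against 0.09 with it. C1qa was at 32.8 CPM in WT mouse 2, where the other WT mice were at 20.9 to 24.3, and without this mouse its log2 fold change was 0.19, against 0.10 with it. None of the 3 genes was called with or without these mice.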

How the results depend on the processing

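None of the 9 genes was called for genotype under any of 21 alternatives, 12 of which left out 1 mouse. The nearest was Cx3cr1 without mouse 2 (log2 fold change 0.28, adjusted p = 0.0684). Of 189 values of the 9 genes, 185 kept their direction and 4, all of Tmem119, turned: -0.090 within mice 7 to 12, and below 0 without mouse 5, 6 or 7, in a range of -0.016 to 0.084 with 1 mouse left out. Over all genes, 330 were called, against 506 with DESeq2, 162 on log2(TPM + 1), 138 within mice 1 to 6, 161 within mice 7 to 12 and 236 to 315 with 1 mouse left out. For sex, 16 genes were called, 9 with the mouse sets as a covariate and 11 to 1180 with 1 mouse left out, among them 0 to 1 of the 9. Sex differences near 0 turned for Siglech with the mouse sets (0.0053), for Cx3cr1 without mouse 2 (range -0.12 to 0.0028 with 1 mouse left out) and for P2ry12 without mouse 5 (-0.11 to 0.0016). On the lists, DESeq2 added Ctsb, Adora1 and Gfap, the mouse sets as a covariate added Adora1, log2(TPM + 1) called neither C4b, Vldlr nor Gas6, and only Agt and Spp1 were called within both mouse sets. For the interaction, 0 to 2 genes were called with 1 mouse left out. The causes were not tested. No paired analysis was possible because each mouse number occurs once, so the genotypes share none.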
